A study of Homo sapiens with 9 samples.

Results

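MHC class I presentation was followed through 9 genes: NLRC5, HLA-B, HLA-C, B2M, TAP1, TAP2, PSMB8, PSMB9 and ERAP2. They were chosen by name from the pathway, with earlier results of these data known. They were matched by symbol to Ensembl identifiers, and all 9 were found among the 58243 gene identifiers of the count files. RNA-seq had been done on DOHH2, a human cell line grown from a transformed follicular lymphoma. The D0 group was DOHH2 cultured on the day of grafting, with 3 libraries. The D19 and D40 groups, 3 libraries each, came from RAGγc mice, a strain without lymphocytes of its own, whose femurs were taken on the day after grafting that the group name gives. The femur cells had been sorted as human CD20-positive cells, and the labels describe no sort of the cultured cells. All groups are 1 cell line, and the labels do not say how many mice gave each femur library or whether the libraries of a group are biological replicates, so the p-values measure the spread between these libraries.

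Class I molecules show peptides from inside the cell to CD8 T cells. The proteasome, whose catalytic subunits PSMB5, PSMB6 and PSMB7 can be replaced by the immunoproteasome subunits PSMB8, PSMB9 and PSMB10, cuts proteins into peptides, the TAP1 and TAP2 transporter carries them into the endoplasmic reticulum, ERAP1 and ERAP2 trim them, and a loading complex places them on a heavy chain (HLA-B, HLA-C) paired with the light chain B2M. NLRC5 is a transactivator of class I genes: it joins the RFX, CREB/ATF and NF-Y factors on class I promoters, as CIITA does on class II promoters. It is known to be induced by interferon-gamma, and its action on the other members was not tested here. B cells normally carry high class I levels, and B cell lymphomas are known to lose them often.

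The libraries held 21071239 to 29456271 counts, and 15163 genes passed the filter on low counts. Counts on mitochondrial genes made up 4.83% to 6.07% of the culture libraries and 7.54% to 8.67% of the femur libraries, and the part of this difference in the results was not tested. B cell markers summed to 4109 to 5167 CPM (reads of a gene scaled to a common library total, with TMM factors) in culture, 2779 to 3014 CPM at day 19 and 3259 to 3488 CPM at day 40, with all 7 markers detected. The erythroid gene HBB, the endothelial genes CDH5 and KDR and the stromal genes COL1A2, COL3A1, CXCL12, LUM and POSTN were at 0 counts in each library. The 10 stromal markers summed to 1.16 to 1.49 CPM in culture, 4.97 to 7.54 CPM at day 19 and 4.38 to 5.29 CPM at day 40, most of it PDGFRB, which had 3.15 to 6.61 CPM in femur libraries and at most 0.0911 CPM in culture. T and NK cell markers summed to 22.7 to 30.0 CPM in culture, 7.36 to 8.45 CPM at day 19 and 16 to 18.6 CPM at day 40, and the 6 endothelial markers to 4.42 to 7.60 CPM in culture, 1.61 to 3.12 CPM at day 19 and 3.28 to 4.24 CPM at day 40, nearly all of it PECAM1 (called lower at day 19, log2 -1.40, and not called at day 40, log2 -0.62). The 8 myeloid markers summed to 2.42 to 5.94 CPM over the 9 libraries. In bulk libraries, fewer cells with a transcript and less of it per cell cannot be told apart.

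All 9 members were higher in femur cells than in culture, at day 19 and again at day 40. At day 19 the 9 of 9 called higher (edgeR quasi-likelihood test, Benjamini-Hochberg adjusted p under 0.05 over all tested genes) stood against 26.3% of the 15163 tested genes, and at day 40 the 9 of 9 stood against 23.3%. In all 9 the femur libraries of either day lay above the 3 culture libraries without overlap, as they did for 30.6% of all tested genes at day 19 and 27.4% at day 40. NLRC5, TAP1, PSMB8, PSMB9 and ERAP2 rose at least 2-fold on both days, a size reached by 10.8% of tested genes at day 19 and 9.34% at day 40. The median log2 fold change of the 9 was 1.23 at day 19 and 1.15 at day 40, beside a median of 0.01 over all tested genes on either day. Together the 9 genes took 0.131% to 0.174% of all counts in culture and 0.232% to 0.273% in femur. The D19 and D40 comparisons share the culture libraries, and the 9 genes are not independent of each other. The 9 were chosen with earlier results of these data known, so the 9 of 9 is no test of the pathway. Outside the 9, some pathway genes rose (ERAP1, PSME1 and TAPBPL) and others did not (TAPBP, CALR, CANX and PDIA3).

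**Figure D1:**
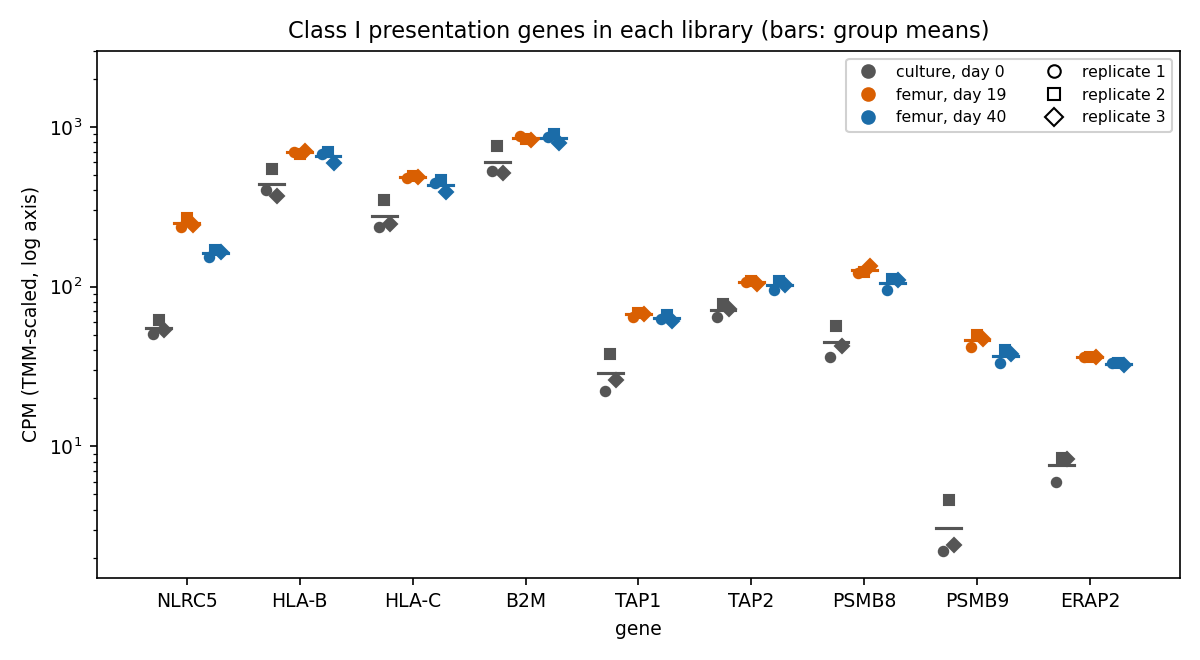
Level of the 9 genes in each of the 9 libraries, in TMM-scaled CPM on a log axis. Colours give the group, symbols the replicate, and short bars the mean of 3 libraries. For each gene the 6 femur points lie above the 3 culture points, and the culture square (replicate 2) is the highest culture point throughout.

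Between the femur days the members moved less. NLRC5 alone was called lower at day 40 than at day 19, beside 1.45% of all tested genes, and the other 8 were not called. The median log2 difference of the 9 was -0.14, against 0.00 for all tested genes. In NLRC5, HLA-C, PSMB8, PSMB9 and ERAP2 each day 40 library lay below each day 19 library, which 12.6% of tested genes did. For HLA-C, PSMB8, PSMB9 and ERAP2 that difference, between -0.14 and -0.32 on the log2 scale, did not pass the test.

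NLRC5 (chr16:56989485-57083531 of hg38, plus strand) is the transactivator among the 9 genes. In culture it had 50.8, 61.6 and 53.2 CPM, in day 19 femur 236, 271 and 245 CPM, and in day 40 femur 153, 169 and 165 CPM. The 3 groups did not overlap: the day 19 libraries were highest and the day 40 libraries between them and culture. Its mean rose from 55.2 ± 5.69 CPM (SD, n = 3) to 250 ± 18.2 CPM at day 19, a 4.54-fold change (log2 2.18, SE 0.09, edgeR adjusted p = 2.91e-09). At day 40 the mean of 162 ± 8.59 CPM was 2.94-fold above culture (log2 1.56, SE 0.08, edgeR adjusted p = 6.05e-08). From day 19 to day 40 NLRC5 fell by 0.63 on the log2 scale (SE 0.08, edgeR adjusted p = 0.000959), to 0.648 times its day 19 level. Whether that drop differed from the differences of the other members was not tested.

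HLA-B (chr6:31269491-31357188, minus strand) and HLA-C (chr6:31268749-31272130, minus strand) encode class I heavy chains, and B2M (chr15:44711487-44718877, plus strand) encodes the light chain they share. Class I promoters carry a module of short elements just before the start site on which the NLRC5 complex assembles, with a CRE-like element bound by CREB/ATF and an inverted CCAAT box bound by NF-Y. The stretches before the RefSeq start sites of the 3 genes (GRCh38.p14) are shown because they hold these elements at similar distances from the start. Each is given 5′ to 3′ on the strand of the gene and ends before the gene's first GENCODE exon. Capitals mark matches, on either strand, to the CCAAT box (CCAAT), the CRE core (TGACG), the IRF repeat (2 copies of GAAA with any 2 bases between them), the GAS element (TTCNNNGAA), kappaB (GGGATTCCC) or the GC box (GGGCGG). A base may belong to more than 1 match. HLA-B is chr6:31357189-31357429 (minus strand), HLA-C chr6:31272131-31272342 (minus strand) and B2M chr15:44711267-44711486 (plus strand).
HLA-B: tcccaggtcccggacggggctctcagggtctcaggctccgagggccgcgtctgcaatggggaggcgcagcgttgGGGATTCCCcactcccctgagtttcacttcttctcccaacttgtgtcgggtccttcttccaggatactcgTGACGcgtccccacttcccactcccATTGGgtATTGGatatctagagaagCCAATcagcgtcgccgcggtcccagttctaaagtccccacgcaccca
HLA-C: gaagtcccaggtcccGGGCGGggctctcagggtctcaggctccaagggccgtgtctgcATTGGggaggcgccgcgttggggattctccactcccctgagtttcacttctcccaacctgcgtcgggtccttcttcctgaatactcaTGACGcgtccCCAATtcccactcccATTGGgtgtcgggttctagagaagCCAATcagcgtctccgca
B2M: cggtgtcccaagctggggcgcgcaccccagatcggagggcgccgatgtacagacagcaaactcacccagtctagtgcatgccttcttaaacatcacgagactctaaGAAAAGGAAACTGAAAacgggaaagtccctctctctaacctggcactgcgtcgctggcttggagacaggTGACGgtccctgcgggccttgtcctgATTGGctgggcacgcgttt

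The HLA-B stretch held 3 CCAAT matches, 1 CRE core and 1 kappaB match, and that of HLA-C 4 CCAAT matches, 1 CRE core and 1 GC box. B2M had 1 CCAAT match, 1 CRE core and 2 overlapping IRF repeats. Over 35116 RefSeq promoter windows of 300 bases (250 before and 50 after the start), the CCAAT box occurred in 34.6%, the CRE core in 24.6%, the IRF repeat in 3.57%, GAS in 7.66%, kappaB in 0.384% and the GC box in 45% of windows. Of the 9 members 8 had a window in the RefSeq table, TAP1, PSMB8 and ERAP2 with 2 start sites each. CRE cores were found in 6 of these 11 windows, CCAAT boxes in 5, IRF repeats in 5, GC boxes in 7, GAS in 2 and kappaB in 1. A match is a run of letters and no measurement of binding.

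**Figure D2:**
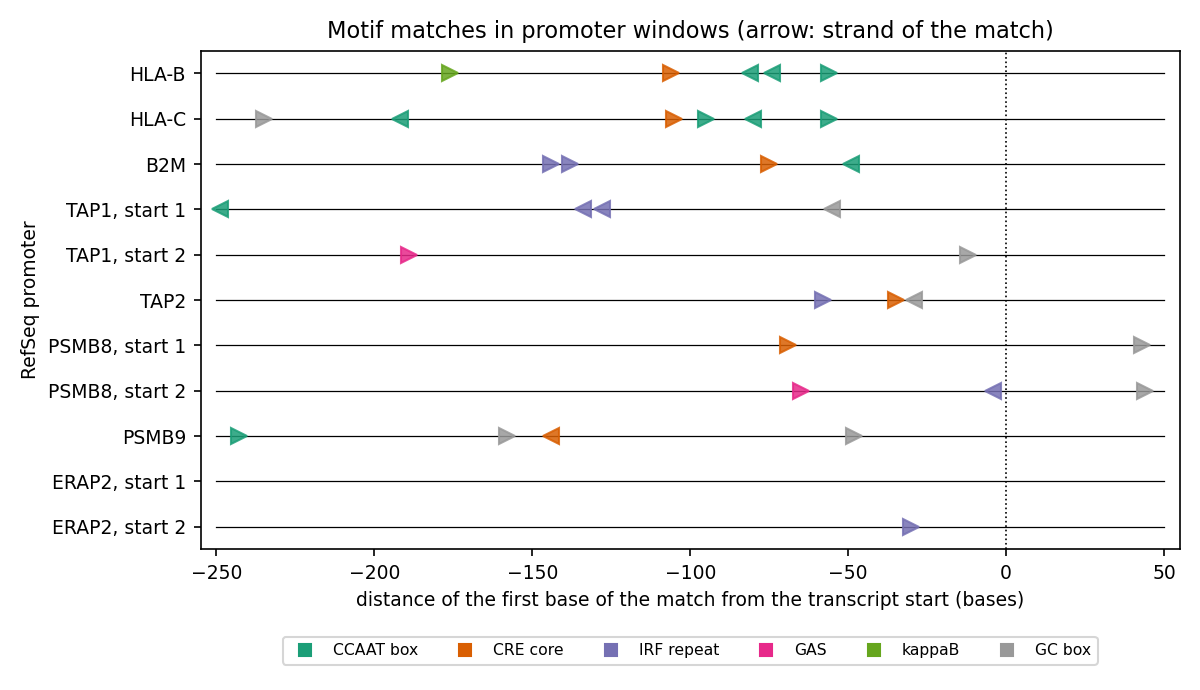
Position of each motif match in the promoter windows of 8 members, from 250 bases before to 50 bases after the RefSeq start (dotted line). Each line is 1 start site, colours give the motif and arrows the strand. HLA-B, HLA-C and B2M hold a CRE core followed by CCAAT matches, and IRF repeats lie in windows of B2M, TAP1, TAP2, PSMB8 and ERAP2.

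HLA-B had 404, 546 and 371 CPM in culture, 694, 679 and 705 CPM at day 19 and 675, 700 and 593 CPM at day 40. HLA-C had 237, 351 and 246 CPM in culture, 478, 490 and 489 CPM at day 19 and 445, 467 and 391 CPM at day 40. B2M had 531, 765 and 512 CPM in culture, 875, 841 and 825 CPM at day 19 and 865, 906 and 799 CPM at day 40. The femur libraries of the 3 genes were all above culture, but culture replicate 2 lay much nearer to them than the other 2 culture libraries. HLA-B rose 1.57-fold at day 19 (log2 0.65, SE 0.12, edgeR adjusted p = 0.000715) and 1.49-fold at day 40 (log2 0.57, SE 0.12, edgeR adjusted p = 0.0022). The rise of HLA-C was 1.75-fold at day 19 (log2 0.81, SE 0.13, edgeR adjusted p = 0.000209) and 1.56-fold at day 40 (log2 0.64, SE 0.13, edgeR adjusted p = 0.00136). B2M changed least of the 9 genes, with 1.41-fold at day 19 (log2 0.49, SE 0.13, edgeR adjusted p = 0.00606) and 1.42-fold at day 40 (log2 0.51, SE 0.13, edgeR adjusted p = 0.00611), where TAP2 had the same log2 value.

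Per kilobase of the main transcript, B2M had the highest level of the 9 genes in each group, at 353 CPM per kb in culture, 497 at day 19 and 502 at day 40. HLA-B followed at 285, 448 and 424 CPM per kb, and HLA-C at 181, 316 and 283 CPM per kb. In culture the libraries of B2M and HLA-B overlapped on this scale. The order of these 3 depends on the length used: over all annotated exons, which make B2M longer, HLA-B was first at 144, 227 and 215 CPM per kb and B2M the third at 99.1, 139 and 141 CPM per kb. Below them PSMB8 was the fourth in every group on either scale. ERAP2 had the lowest level in both femur groups on either scale, while in culture PSMB9 was lowest by all exons and ERAP2 by the main transcript. NLRC5 and TAP1 overlapped in culture and at day 40, and at day 19 NLRC5 was higher, at 36.7 against 22.7 CPM per kb of main transcript.

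TAP1 (chr6:32845209-32853978, minus strand) and TAP2 (chr6:32821833-32838780, minus strand) form the peptide transporter, and both lie in the class II region beside PSMB8 and PSMB9. TAP1 had 22.1, 37.8 and 26.0 CPM in culture, 64.8, 68.6 and 67.8 CPM at day 19 and 63.0, 66.7 and 60.6 CPM at day 40. TAP2 had 64.7, 77.5 and 72.8 CPM in culture, 107, 108 and 104 CPM at day 19 and 95.1, 109 and 103 CPM at day 40. Neither gene's femur libraries overlapped culture, and the femur days overlapped each other. TAP1 rose 2.35-fold at day 19 (log2 1.23, SE 0.14, edgeR adjusted p = 2.13e-05) and 2.22-fold at day 40 (log2 1.15, SE 0.14, edgeR adjusted p = 5.51e-05). TAP2 rose 1.49-fold at day 19 (log2 0.57, SE 0.08, edgeR adjusted p = 5.67e-05) and 1.43-fold at day 40 (log2 0.51, SE 0.08, edgeR adjusted p = 0.000191).

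PSMB8 (chr6:32840717-32844703, minus strand) and PSMB9 (chr6:32844136-32859585, plus strand) encode catalytic subunits of the immunoproteasome. PSMB8 had 36.0, 56.5 and 42.2 CPM in culture, 121, 124 and 135 CPM at day 19 and 94.6, 112 and 109 CPM at day 40. PSMB9 had 2.21, 4.6 and 2.4 CPM in culture, 41.7, 49.8 and 47.2 CPM at day 19 and 33.2, 40.2 and 37.6 CPM at day 40. Both genes were higher in all femur libraries, and the day 40 libraries of either gene all lay below its day 19 libraries. PSMB8 rose 2.82-fold at day 19 (log2 1.5, SE 0.13, edgeR adjusted p = 1.78e-06) and 2.35-fold at day 40 (log2 1.23, SE 0.13, edgeR adjusted p = 1.53e-05). PSMB9 rose 15.2-fold at day 19 (log2 3.93, SE 0.20, edgeR adjusted p = 1.65e-08) and 12.2-fold at day 40 (log2 3.61, SE 0.20, edgeR adjusted p = 6.29e-08). By log2 fold change PSMB9 ranked 199 of 15163 tested genes at day 19 and 221 at day 40. TAP1 and PSMB9 are read in opposite directions from a shared stretch, with RefSeq starts 488 bases apart, and their rises were of unlike size.

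ERAP2 (chr5:96875939-96919716, plus strand) trims peptides in the endoplasmic reticulum. It had 5.94, 8.42 and 8.37 CPM in culture, 36.0, 36.4 and 36.5 CPM at day 19 and 33.2, 33.5 and 32.2 CPM at day 40. The libraries of each femur day lay close together and far above culture. ERAP2 rose 4.78-fold at day 19 (log2 2.26, SE 0.12, edgeR adjusted p = 1.71e-08) and 4.34-fold at day 40 (log2 2.12, SE 0.11, edgeR adjusted p = 5.93e-08).

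IRF factors bind a repeated GAAA core, and the windows of TAP1, TAP2, PSMB8 and ERAP2 each held one. The 30-base sites are given because each holds the repeat (capitals mark it on either strand, RefSeq windows on GRCh38.p14, each read 5′ to 3′ on the strand of the gene). They lie at chr6:32853816-32853845 for the first TAP1 start, chr6:32838778-32838807 for TAP2, chr6:32844030-32844059 for the second PSMB8 start and chr5:96876460-96876489 for the second ERAP2 start.
TAP1: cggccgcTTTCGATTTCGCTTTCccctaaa
TAP2: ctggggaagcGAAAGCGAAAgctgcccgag
PSMB8: tctgtggcTTTCGCTTTCacttcctcctcc
ERAP2: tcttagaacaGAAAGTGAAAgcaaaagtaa

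The TAP1 site held 2 overlapping repeats. PSMB9 had no IRF repeat in its own 300-base window, which says only that these letters are not there. Among other pathway genes the windows of PSMB10, TAPBP, ERAP1, PSME1 and PSME2 also held the repeat.

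The counting could affect several of these values. PSMB8 and PSMB9 share 139 exonic bases on opposite strands, the antisense gene PSMB8-AS1 overlaps exons of PSMB8, PSMB9 and TAP1, TAP2 shares 2064 exonic bases with the readthrough gene AL669918.1, and HLA-B and HLA-C share 35 exonic bases and long stretches of near-identical sequence. The sources used here do not state the strand setting or the handling of reads that match several genes, so reads of such pairs cannot be told apart, and the values of the HLA genes are uncertain. IRF1, CIITA, SAMHD1, SETDB1, PDIA3, TAPBPL, PSMB10 and HLA-F, named in other groups, share exonic bases with neighbours as well.

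Culture replicate 2 had the highest level of all 9 members among the culture libraries, and the rises were smallest against it. By the dates in the sample names, the libraries fall into 3 sampling periods with 1 library of each group. Within these periods all 9 members were higher in femur in 3 of 3 periods, which their lack of overlap with culture had already fixed. The log2 differences ran from 0.14 to 4.04 at day 19 and from 0.24 to 3.71 at day 40. For B2M the day 19 differences were 0.72, 0.14 and 0.69, for HLA-B 0.78, 0.31 and 0.92, and for HLA-C 1.01, 0.48 and 0.99, in the order of the periods. For NLRC5 they were 2.20, 2.13 and 2.19. From day 19 to day 40 NLRC5 was lower in 3 of 3 periods, by log2 values of -0.62, -0.68 and -0.57. HLA-C, TAP1, PSMB8, PSMB9 and ERAP2 were also lower in 3 of 3 periods, and HLA-B, B2M and TAP2 in 2 of 3. For NLRC5, HLA-C, PSMB8, PSMB9 and ERAP2, whose femur days did not overlap, that count was likewise fixed. Counted from the date of its period's culture library, the names put day 19 libraries at 18, 19 and 19 days but day 40 libraries at 11, 26 and 39 days, so the dates do not tie the day 40 cells to the same graft.

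The ratio of immunoproteasome to constitutive subunits was higher in each femur library than in each culture library. PSMB5, PSMB6 and PSMB7, which PSMB8, PSMB9 and PSMB10 replace, all fell at day 19 (log2 -0.23, -0.25 and -0.28) and at day 40 (log2 -0.32, -0.28 and -0.23), although scaling by total counts alone ended the day 19 calls of PSMB5 and PSMB6 and the day 40 call of PSMB7. PSMB5 also lost its day 19 call without day 19 replicate 3 (edgeR adjusted p = 0.0539). A ratio within a library needs no such scaling. Per exon length, PSMB8 to PSMB5 was 0.318, 0.444 and 0.353 in culture, 1.21, 1.15 and 1.37 at day 19 and 0.962, 1.17 and 1.16 at day 40. PSMB9 to PSMB6 was 0.0137, 0.0285 and 0.0166 in culture, 0.322, 0.388 and 0.350 at day 19 and 0.275, 0.291 and 0.297 at day 40. For both, the 6 femur libraries lay above the 3 culture libraries. The levels of PSMB5, PSMB6, PSMB8 and PSMB9 did not overlap between femur and culture, so this order was fixed. The genes of the 6 ratios were chosen with earlier results of these data known. The exact p-values of the ratios, which pool day 19 and day 40, are therefore no independent test. The log2 difference between femur and culture was 1.66 for PSMB8 to PSMB5 and 4.09 for PSMB9 to PSMB6 (exact two-sided permutation test, 6 against 3 libraries, p = 0.0238 for each, the smallest this design allows; adjusted over 6 ratios 0.0286). With the culture label permuted only within the 3 sampling periods, 27 arrangements exist and the smallest two-sided exact p is 0.0741, so none of the 6 ratios can pass the threshold there. PSMB10 to PSMB7 moved by 0.62 with the same exact p and adjusted p, from a mean of 0.130 in culture to 0.212 at day 19 and 0.186 at day 40. PSMB10 itself had 13.8, 19.5 and 14.5 CPM in culture, 21.1, 21.6 and 21.3 CPM at day 19 and 16.3, 22.9 and 18.8 CPM at day 40. It was called at day 19 (log2 0.42, edgeR adjusted p = 0.0275) and not at day 40 (log2 0.28, edgeR adjusted p = 0.126), and at day 19 it lost the call without culture replicate 1 (edgeR adjusted p = 0.107), culture replicate 3 (0.106) or any 1 day 19 library (0.0598 to 0.0678).

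**Figure D3:**
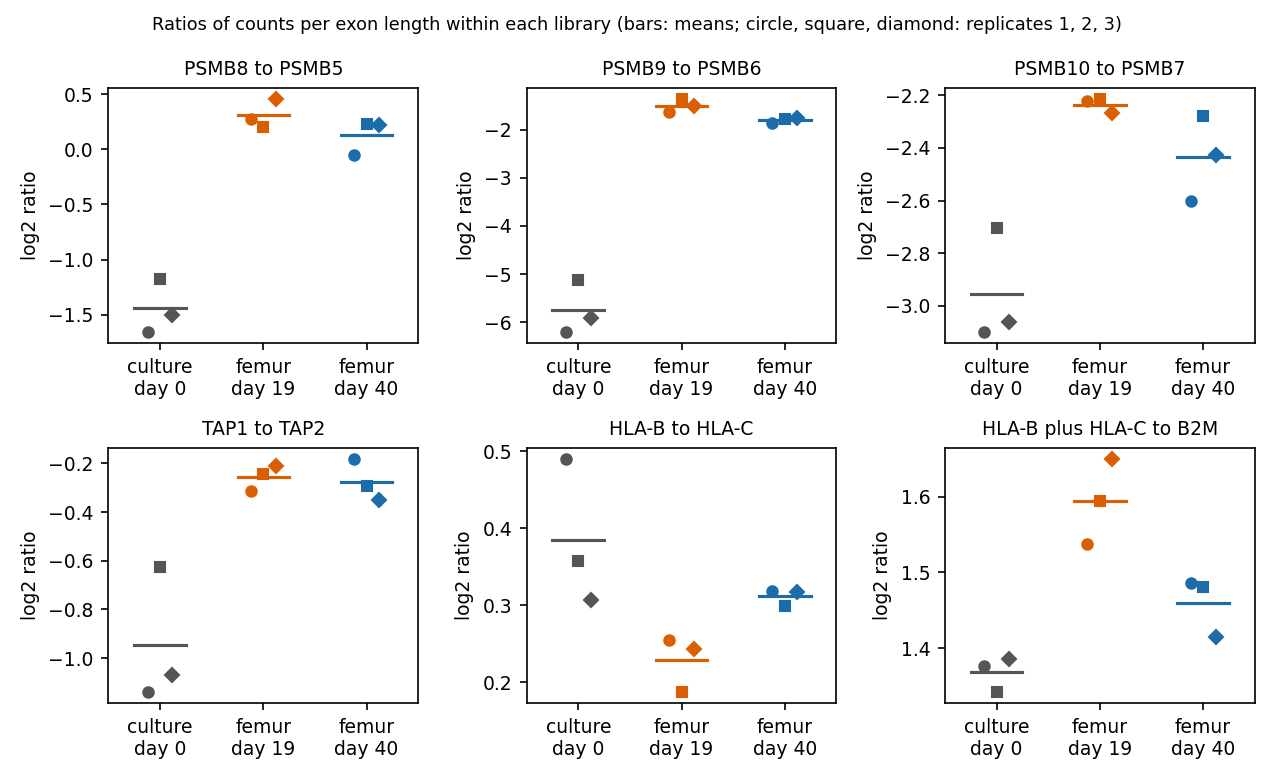
Log2 ratios of counts per exon length between paired genes in each library, with a panel per ratio, symbols for replicates 1 to 3 and bars for the mean of 3 libraries. The femur points lie above culture in each panel except HLA-B to HLA-C, where the groups overlap, and the axes differ between panels.

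The other ratios moved less than PSMB8 to PSMB5 and PSMB9 to PSMB6. TAP1 to TAP2 rose from 0.526 ± 0.106 (SD, n = 3) in culture to 0.837 ± 0.0306 at day 19 and 0.827 ± 0.0493 at day 40, a femur against culture log2 difference of 0.68 (exact two-sided permutation p = 0.0238, adjusted 0.0286). HLA-B plus HLA-C to B2M rose by 0.16 on the log2 scale with the same p, from 2.58 ± 0.0404 in culture to 3.02 ± 0.117 at day 19 and 2.75 ± 0.0753 at day 40. The ratio HLA-B to HLA-C was 1.31 ± 0.0866 in culture, 1.17 ± 0.0291 at day 19 and 1.24 ± 0.00954 at day 40, its groups overlapped, and the log2 difference of -0.11 did not pass (exact two-sided permutation p = 0.0714, adjusted 0.0714). Over the main transcripts, PSMB8 to PSMB5 came to 0.727, 2.43 and 2.15 in the 3 groups and PSMB9 to PSMB6 to 0.0453, 0.817 and 0.665. For a ratio of single genes the level, but not the log2 difference between groups, depends on the length chosen. For HLA-B plus HLA-C to B2M, which holds a sum, the difference depends on it as well. That ratio came to 1.32, 1.54 and 1.41 over the main transcripts.

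Of 10 other class I molecules tested, 3 rose and 2 fell at day 19, where 26.3% of all tested genes rose and 26.5% fell. Their median log2 fold change was 0.11. At day 40, 4 rose and 1 fell, beside 23.3% of all tested genes each way, and nothing is read from these counts. HLA-E, which presents signal peptides to NK cell receptors, rose from 133 ± 29.1 CPM (SD, n = 3) to 324 ± 2.2 CPM at day 19 and 294 ± 33.8 CPM at day 40 (log2 1.29 and 1.15). HLA-F went from 3.82 ± 0.922 CPM to 17.3 ± 1.74 and 12 ± 1.95 CPM (log2 2.18 and 1.66). PROCR, an endothelial protein C receptor with a class I fold, fell by 2.38 on the log2 scale at day 19 from 1.4 CPM in culture. It had under 10 counts in every femur library, so it passed the filter through the culture libraries and had to differ. CD1C, which presents lipids, fell by 2.12 at day 19 from 0.912 CPM in culture and was not called at day 40. It had 6, 4 and 4 counts at day 19 and passed the filter through the other groups, so this fall rests on few counts.

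A list of 7 loading factors and chaperones holds TAPBP, TAPBPL, CALR, CANX, PDIA3 and the general chaperones HSPA5 and UGGT1, and leaves out TAP1, TAP2, the heavy chains and B2M, which rose. At day 19, 5 of the 7 fell and 1 rose (median log2 fold change -0.42), beside 26.5% and 26.3% of all tested genes. At day 40, 4 fell and 1 rose, beside 23.3% of all tested genes each way. The chaperones CALR and CANX and the disulfide isomerase PDIA3 fell by 0.62, 0.59 and 0.57 on the log2 scale at day 19, and by 0.55, 0.41 and 0.29 at day 40. TAPBP, the tapasin that bridges TAP and the heavy chain, had 167 ± 5.48 CPM in culture, 176 ± 9.75 CPM at day 19 and 169 ± 9.27 CPM at day 40 and was not called. TAPBPL, a tapasin-related peptide editor, rose from 8.88 ± 0.499 CPM to 21.6 ± 0.762 and 19.9 ± 0.627 CPM (log2 1.28 and 1.16).

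Among 11 peptidases and proteasome partners, 6 rose and 3 fell at day 19, beside 26.3% and 26.5% of all tested genes. ERAP1, the trimming partner of ERAP2, rose from 46.2 ± 1.79 CPM to 84.3 ± 3.45 and 80.7 ± 3.04 CPM (log2 0.87 and 0.80). PSME1 and PSME2, the interferon-inducible proteasome activator subunits, rose by log2 0.94 and 0.45 at day 19 and 0.72 and 0.37 at day 40. POMP, which assembles new proteasomes, fell by 0.71 on the log2 scale at day 19 and by 0.52 at day 40, and PSME3, a nuclear activator, fell by 0.29 and 0.35. At day 40, 5 rose and 2 fell, beside 23.3% of all tested genes each way, and 3 rose without the filter on low counts or without day 40 replicate 1.

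**Figure D4:**
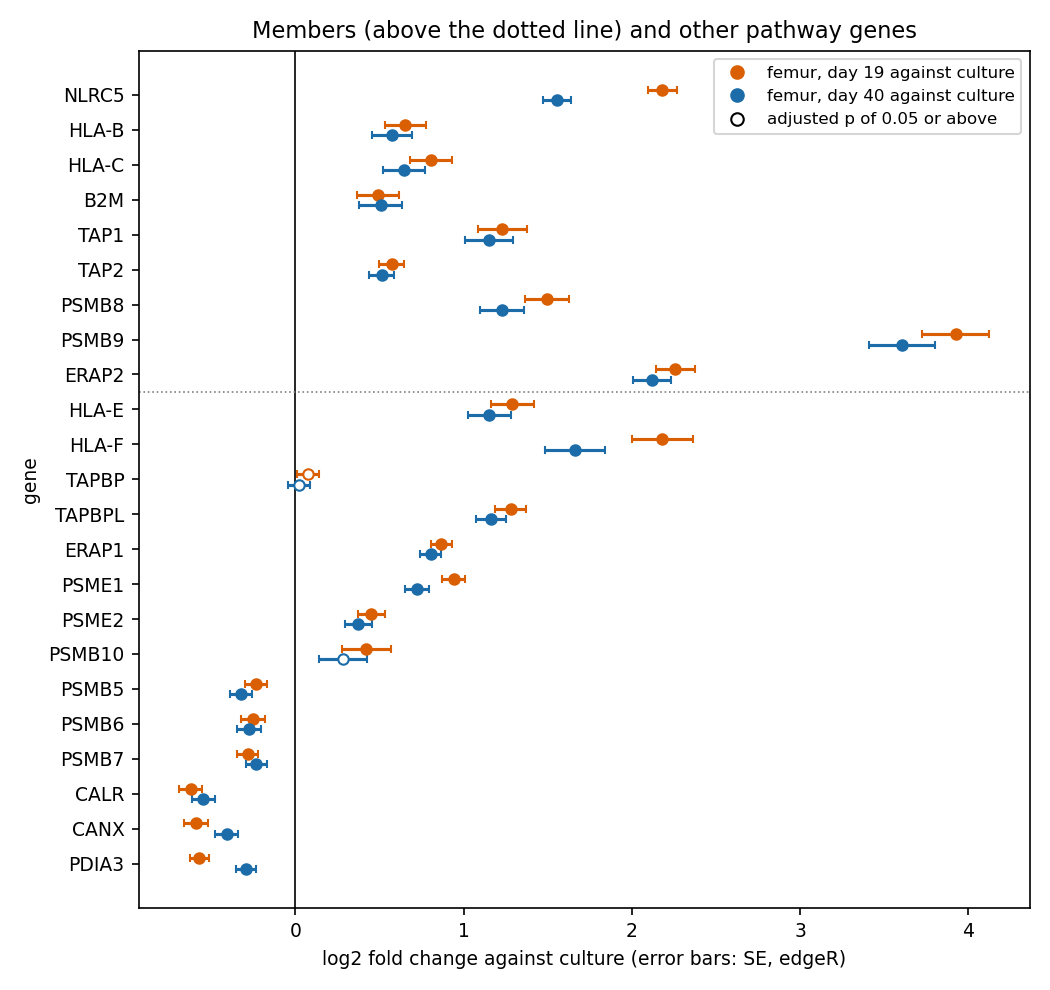
Log2 fold change against culture at day 19 and day 40, with an SE derived from the edgeR F statistic. The 9 members lie above the dotted line and other genes of the pathway below it. Open points did not pass the adjusted p of 0.05. All members lie to the right of 0, PSMB9 farthest, and PSMB5, PSMB6, PSMB7, CALR, CANX and PDIA3 lie to the left.

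NLRC5 acts through DNA-binding partners at class I promoters. Of 13 class I promoter factors, 3 rose and 3 fell at day 19, with a median log2 fold change of 0.00 (total-count scaling gave 5 that rose). Both counts are near the 26.3% and 26.5% of all tested genes that rose and fell, and nothing is read from them. RFX5 had 141 ± 4.2 CPM in culture, 140 ± 2.53 CPM at day 19 and 138 ± 12.3 CPM at day 40. RFXANK, the ankyrin-repeat subunit of the same complex, fell by 0.56 on the log2 scale at day 19 and by 0.46 at day 40. RFXAP rose by log2 0.33 at day 19 (edgeR adjusted p = 0.0225) but not at day 40, and lost the day 19 call without culture replicate 1 or 2 or day 19 replicate 2 or 3 (edgeR adjusted p 0.054 to 0.0808). USF1 rose (log2 0.40 and 0.25) and USF2 fell (log2 -0.64 and -0.52).

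Of 16 tested interferon signalling genes, 6 rose and 5 fell at day 19, beside 26.3% and 26.5% of all tested genes. At day 40, 6 rose and 4 fell, beside 23.3% each way. With so few genes, nothing is read from these counts. IRF1, an interferon-induced activator of class I promoters, had 3.95, 4.10 and 4.03 CPM in culture, 51.4, 41.9 and 46.3 CPM at day 19 and 58.7, 40.7 and 36.5 CPM at day 40. All femur libraries were far above culture, and the femur days overlapped (log2 3.53 and 3.49 against culture, edgeR adjusted p = 1.55e-08 and 3.89e-08). The feedback inhibitor SOCS1 rose by log2 1.16 and 0.98 and IRF2 by 0.63 and 0.36, while IRF8, STAT3 and the receptor chain IFNAR1 fell by 0.92, 0.52 and 0.47 on the log2 scale at day 19. Without culture replicate 2, day 19 replicate 2 or day 19 replicate 3, or with total-count scaling, 3 genes of this group fell at day 19 instead of 5. IRF2 lost its day 40 call without culture replicate 1 or 3 or day 40 replicate 2 or 3.

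None of 10 ligand genes passed the filter. IFNG had 0 or 1 counts in all libraries except day 40 replicate 1, with 5, and IFNB1 had 6 counts in that library and 0 or 1 elsewhere. TNF had 17 counts in day 40 replicate 1 and at most 5 in the others, and LTA had 7, 17 and 15 counts in culture. The femur libraries came from sorted human CD20-positive cells, and ligand made by the cells around them was not measured. Whether any of these few counts came from other cells carried over was not tested.

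Of 26 listed genes known to respond to interferon-gamma, 15 rose and 3 fell on either day, beside 26.3% and 26.5% of all tested genes at day 19 and 23.3% each way at day 40. A further 6 (GBP2, GBP5, CXCL9, CXCL10, CXCL11 and IDO1) did not pass the filter on low counts. GBP1, GBP4, APOL1, RTP4 and CASP4 had under 10 counts in every culture library, so these 5 passed the filter through the femur libraries and had to differ. Of the other 15 tested, 10 rose and 3 fell on either day. Among the 10, XAF1 (3, 6 and 13 counts in culture) and DTX3L (19, 21 and 8) were under 10 counts in part of the culture libraries. Their passing of the filter therefore also rested on femur libraries. APOL6 rose from 16.4 ± 0.334 CPM to 84.6 ± 5.94 and 87.6 ± 2.38 CPM (log2 2.37 and 2.42), and PARP9 from 0.975 ± 0.497 CPM to 22.0 ± 5.25 and 27.8 ± 7.53 CPM (log2 4.51 and 4.86). SAMHD1, BST2 and WARS1 fell, by 0.86, 0.74 and 0.29 on the log2 scale at day 19, though WARS1 lost that call with total-count scaling. Many genes of this list also respond to type I interferon.

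**Figure D5:**
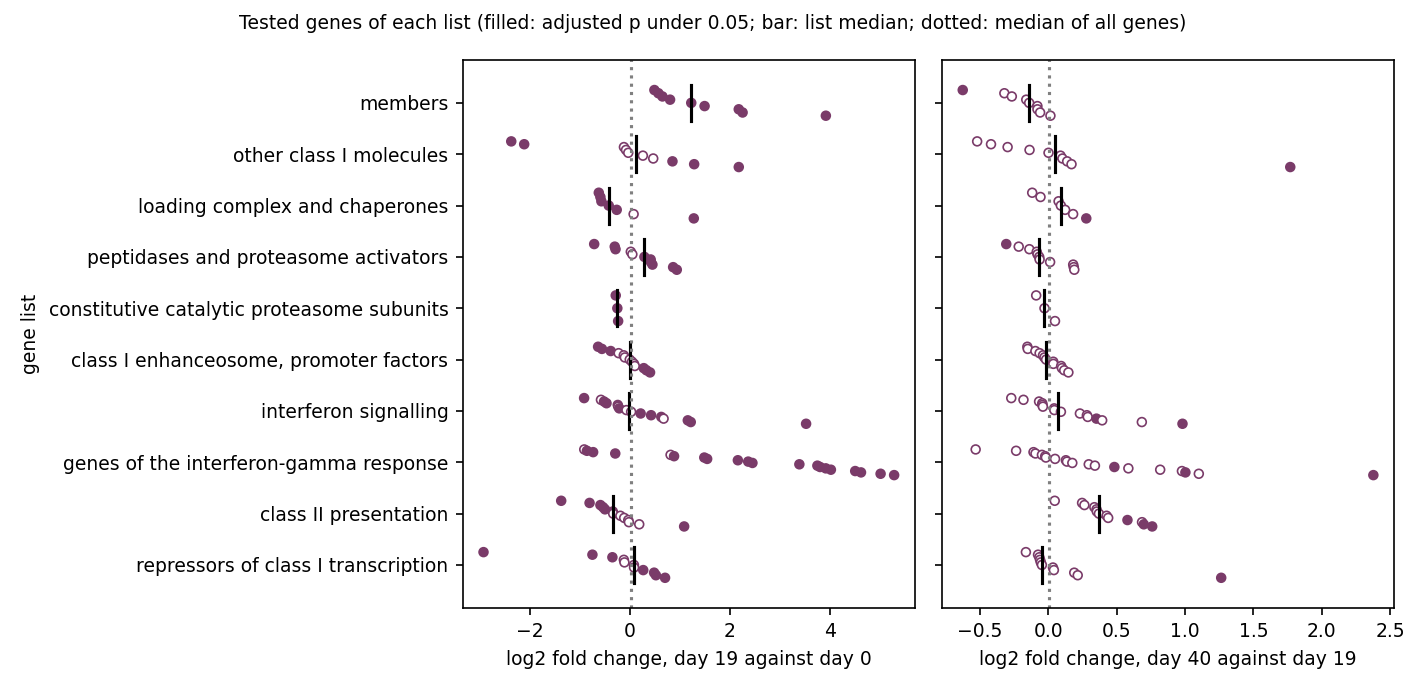
Log2 fold changes of the tested genes in each list, day 19 against day 0 on the left and day 40 against day 19 on the right, with 1 point per gene. Filled points passed the adjusted p of 0.05, bars are list medians (none is drawn for the interferon-gamma response) and dotted lines the median of all tested genes. On the left all members lie to the right of 0. On the right NLRC5 is the filled member point at -0.63, and class II genes lie to the right of 0.

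Class II presentation is governed by CIITA, a relative of NLRC5. CIITA rose from 67.1 ± 2.77 CPM to 143 ± 8.59 and 147 ± 13.4 CPM (log2 1.09 and 1.13), and it was the 1 gene of 13 that rose at day 19 while 6 fell, beside 26.3% and 26.5% of all tested genes. Among the 6 were HLA-DOB, HLA-DMA and HLA-DMB (log2 -1.38, -0.81 and -0.59). At day 40, 3 of 13 were called above culture and 2 below, beside 23.3% of all tested genes each way, but leaving out culture replicate 2 gave 7 above and 1 below, day 40 replicate 2 gave 1 above, and day 40 replicate 3 gave 5 above and 1 below. The fit with the sampling period as a block gave 6 above. From day 19 to day 40, 3 of 13 rose and none fell, beside 3.23% and 1.45% of all tested genes, and a fit with the sampling period as a block called 10 of 13. The count was 7 without culture replicate 2, 5 without day 40 replicate 3, 1 without day 19 replicate 2, and 0 when day 19 replicate 1 or 3 or day 40 replicate 1 or 2 was left out.

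Of 11 tested repressors linked to class I genes, 4 rose and 3 fell at day 19, beside 26.3% and 26.5% of all tested genes, and nothing is read from these counts. EZH2, the methyltransferase known to silence class I genes in several tumours, had 209 ± 12.9 CPM in culture, 221 ± 7.98 CPM at day 19 and 212 ± 13.1 CPM at day 40 and was not called. BCL6, the germinal centre repressor, fell from 428 ± 38.1 CPM to 56 ± 2.88 CPM at day 19 and had 135 ± 3.89 CPM at day 40 (log2 -2.93 and -1.67), and it rose between the femur days by log2 1.26 (edgeR adjusted p = 5.34e-06). HDAC1 and HDAC2 fell by 0.75 and 0.35 on the log2 scale at day 19, and SETDB1, JARID2 and EZH1 rose by 0.52, 0.49 and 0.71.

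Of 9 other NLR genes tested, 4 rose and 2 fell at day 19, beside 26.3% and 26.5% of all tested genes, and nothing is read from these counts. NLRC3, known as a negative regulator of immune signalling, had 151, 149 and 155 CPM in culture, 70.7, 72.7 and 74.4 CPM at day 19 and 97.6, 96.4 and 102 CPM at day 40. Its groups did not overlap and ran opposite to those of NLRC5: it fell by 1.06 on the log2 scale at day 19 and rose by 0.44 from day 19 to day 40 (edgeR adjusted p = 2.51e-08 and 0.000833). NLRP1, NOD1 and NLRP11 rose by log2 0.59, 1.08 and 0.83 at day 19, and NLRP4 fell by 4.56 on the log2 scale.

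Genes with a pattern like that of a member were sought by Pearson correlation of log2 CPM over the 9 libraries among 9944 genes of at least 5 CPM on average that are no members. In these members the culture libraries lay apart from the femur libraries, so high values mostly restate that split, and no p is given. Closest to NLRC5 were RAPGEF1 (r = 0.996), CD80 (r = 0.996), PSME1, EPN2 and TAPT1 (r = 0.995 each). CD80, a costimulatory ligand, had 2.18 CPM in culture, 10.5 CPM at day 19 and 7.14 CPM at day 40. PSME1 was the 1 gene of the 5 that is in the lists of the pathway. Closest to B2M were ACAP1 (r = 0.995), ACSF2, ITPRIPL1, MMP15 and PCED1B-AS1, and closest to PSMB9 were DNAH1 (r = 0.998), FCRL1, VPS37B, UBA7 and DAGLB. UBA7, the activating enzyme for ISG15, had 29 CPM in culture, 92.4 CPM at day 19 and 88.6 CPM at day 40. By Spearman correlation 9 genes tied at the highest value for NLRC5 and 9 for PSMB9, so no set of 5 is defined for them. For B2M 2 genes tied there, SNX2 and DGKD. None of the 5 genes highest for B2M by Spearman was in its Pearson list, so its closest genes depend on the measure.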

How the data were processed

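Per the submitters' processing notes, the authors used FastQC 0.11.5, STAR 2.5.2a, featureCounts 1.4.6 and DESeq2 1.40.1 with hg38. The deposited values are raw counts per gene, and the strand setting is not given in the sources used here. Of 58243 identifiers 57980 matched GENCODE 29. Here counts were filtered (filterByExpr), scaled by TMM and tested by edgeR 4.0.16 (quasi-likelihood, R 4.3.3) with all 9 libraries in 1 fit and Benjamini-Hochberg adjustment over 15163 genes at 0.05. CPM are TMM-scaled, log2 CPM for correlations had 0.5 added, and SDs are over 3 libraries. Each SE is the absolute log2 fold change divided by the square root of the edgeR F statistic. Ratios were tested by exact permutation (scipy 1.17.1). Alternatives used DESeq2 1.42.0, limma 3.58.1 (voom), other scalings and filters, the 2 groups alone, a block and leave-one-out. The procedure was tested on simulated data. Libraries carry no replicate numbers, and dates in the names define 3 sampling periods. Deviations from the group means correlated within periods at 0.11, 0.23 and 0.19 between culture and day 40, at 0.14, 0.15 and 0.34 between day 19 and day 40, and at 0.04, -0.06 and 0.15 between culture and day 19. Members and lists were chosen with earlier results of these data known. The text names all members and, of each list, up to 3 genes per direction with the smallest p at day 19, and a few further pathway genes. An item of the interferon signalling list is not reported here.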

Additional observations from a re-analysis of the deposited data

Results flagged for a closer look

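NLRC5 differed between the femur days. Its rise over culture was smaller at day 40 than at day 19 by a log2 difference of -0.63 (edgeR adjusted p = 0.000959). The difference was tested directly as a contrast of the 2 femur groups.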

How the results depend on the processing

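All 9 members stayed called higher at day 19 and at day 40 against culture under each of the 17 alternatives, and NLRC5 stayed lower at day 40 than at day 19, with log2 values from -0.67 to -0.57. With the sampling period as a replicate block, 9, 9 and 1 members were called in the 3 comparisons, and the block changed no call of a member. Between the femur days, 3 members were called without a filter on low counts and 2 with only the 2 groups compared (1 to 2 with 1 library left out, 2 without culture replicate 2), the additions being PSMB8 (log2 -0.27 in both, edgeR adjusted p 0.0301 and 0.0493) and PSMB9 (log2 -0.32 in both, edgeR adjusted p 0.0407 without the filter and 0.0433 without culture replicate 2). The sign of B2M between femur days, not called in any setting, turned to -0.031 without day 40 replicate 2 and to -0.0025 without day 19 replicate 3 (range -0.031 to 0.065 with 1 library left out). Over all genes, day 40 against day 19 gave 490 higher and 220 lower, 890 and 434 without the filter, 360 lower by DESeq2 and 396 lower with only the 2 groups. Leaving out 1 library gave 217 to 755 higher and 63 to 438 lower there. It gave 3390 to 3985 higher and 3414 to 4160 lower at day 19, and 2862 to 3408 higher and 2885 to 3560 lower at day 40 against culture. Scaling by total counts alone gave a median log2 fold change over all genes of 0.10 on either day against culture (0.01 in the main scaling) and made 59.1% of the calls at day 19 and 61.1% at day 40 higher. With 1 library left out the log2 ratio differences ranged from 1.56 to 1.80 (PSMB8 to PSMB5), 3.87 to 4.4 (PSMB9 to PSMB6), 0.55 to 0.74 (PSMB10 to PSMB7), 0.58 to 0.84 (TAP1 to TAP2), -0.15 to -0.06 (HLA-B to HLA-C) and 0.13 to 0.18 (HLA-B plus HLA-C to B2M), and without a culture library 6 against 2 cannot reach the threshold by permutation. Permuting within the sampling periods as a replicate block leaves these log2 differences as they are (1.66, 4.09, 0.62, 0.68, -0.11 and 0.16), and the 5 ratios past the threshold have an exact adjusted p of 0.0889 there. This permutation and the ratios over main transcripts were added after seeing the data. The 3 libraries a group, the low culture counts of PSMB9 and the unstated assignment of shared reads limit these values.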
